A study of Mus musculus with 50 samples.

Results

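Lymph nodes draining the ileum were compared with lymph nodes draining the colon in mice raised on a diet deficient in vitamin A. The comparison used 10 bulk RNA sequencing libraries of 50 in the data set, namely replicates 1 to 5 of the ileal node and replicates 1 to 5 of the colonic node, chosen by the diet and node in their sample names. All 10 came from female mice whose genotype is given as C57B6, taken at postnatal day 56. They were born in litters 2 and 3 of C57BL/6J dams on a vitamin A deficient diet, which began 3 weeks ahead of mating. The same pair of nodes on the sufficient diet, with vitamin A at 20 IU/g, gave 10 further libraries, with female mice as replicates 1 and 2 and male mice as replicates 3, 4 and 5 for either node. No label ties nodes to a mouse, or a mouse to its litter or dam. The p-values therefore rest on the spread of libraries within groups, which may be technical. That spread was estimated in 1 fit of all 50 libraries. Whole nodes were sequenced, so fewer cells of a type and less RNA of a gene per cell cannot be told apart.

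A lymph node filters the lymph of the tissue it drains. Lymph enters sinuses lined by lymphatic endothelium and macrophages, passes B cell follicles organised by stromal cells that make the chemokine CXCL13, and leaves through the medulla, where plasma cells and macrophages collect. Vitamin A is stored as retinyl esters and is turned into retinoic acid, which in gut nodes induces homing receptors for the intestine on lymphocytes and favours switching of B cells to IgA. Nodes of the ileum and the colon lie in the same mesentery but receive lymph from different stretches of the intestine, and Hox genes mark position along the body axis, the gut included.

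Estimated counts per library totalled 6127667 to 8896556 for the 10 libraries, and 25414 to 26771 genes had a count. Both groups carried a mark of gut-draining nodes, Nkx2-3. Nkx2-3, a homeobox factor of the endothelium of gut lymphoid tissue, averaged 7.75 ± 1.6 normalised CPM (library-scaled counts after TMM normalisation) in ileal and 8.6 ± 1.42 CPM in colonic nodes (SD, n = 5), and it had no count in deficient inguinal nodes. The T zone chemokine Ccl21a was abundant, at 869 to 1304 CPM in ileal and 1052 to 1658 CPM in colonic nodes. Lrat, which stores retinol as esters and is itself induced by retinoic acid, averaged 1.41 ± 1 CPM in ileal and 0.866 ± 0.254 CPM in colonic nodes of the deficient diet, and 12.4 ± 1.91 CPM in ileal and 8.66 ± 2.22 CPM in colonic nodes of the sufficient diet. The libraries fell into 2 classes by 1 transcript, Gm19220. Replicates 2 and 3 of the ileal node and replicates 2, 3 and 5 of the colonic node had 1.32 to 1.56% of their counts in it, and the other 5 libraries had 6.01 to 9.26%. List counts and the calls that held are therefore also given for a fit without the low-share libraries, which leaves 3 ileal and 2 colonic libraries of the deficient diet. Fat markers were highest in replicate 4 of both nodes, where the summed level of 17 adipose genes was 2616 CPM in the ileal and 2328 CPM in the colonic library, against 742 to 1440 CPM in the other ileal and 853 to 1305 CPM in the other colonic libraries. Mitochondrial transcripts took 0.743 to 2.26% of counts in ileal and 1.98 to 2.14% in colonic libraries.

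Ileal nodes had a small set of genes that were mostly higher than in colonic nodes. Of 18387 genes tested with edgeR's quasi-likelihood test, 215 passed a Benjamini-Hochberg adjusted p of 0.05, which is 1.17% of the genes. Of these, 180 were higher in ileal nodes (0.979%) and 35 were lower (0.190%), and 1628 genes had an unadjusted p under 0.05. A change of at least 2-fold was seen in 62 of the higher and 21 of the lower genes, and the median size on the log2 scale was 0.77 for the higher and 1.23 for the lower ones. In 137 of the 215 genes the ileal and colonic libraries did not overlap, which was true of 1.96% of all genes, 1.28% with higher and 0.680% with lower ileal libraries. The fold changes over all genes had a median of -0.01 on the log2 scale. Without the low-share libraries 22 genes passed, 11 higher and 11 lower, 19 of them among the 215, and with a term for the 2 classes 187 passed. Within the low-share libraries and within the others of the 10, 0 genes passed, with 952 and 628 genes at an unadjusted p under 0.05. Of the 65 called genes followed singly, 12 passed without the low-share libraries, and the other 53 did not. The 12 were Mcpt4, Cpa3, Angpt2, Col6a6, Erv3, Gbp2b, Cxcl13, Rgs5, Hoxc10, Bpifb3, Ighv5-12 and Igkv8-21. The colonic libraries left in that fit were replicates 1 and 4. In these the antibody variable genes Ighv5-12 and Igkv8-21 measured 1.56 and 28.2 CPM, and 95.8 and 30.7 CPM. The call of Igkv8-21 (-2.36 ± 0.49, adjusted p = 0.0043) ended without colonic replicate 1 (adjusted p up to 0.078). Leaving out ileal replicate 4, colonic replicate 3 or colonic replicate 5 gave 130, 139 and 128 genes. In the plot of all genes the called mast cell genes are among the highest called points, at low to middle levels of expression.

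**Figure D1:**
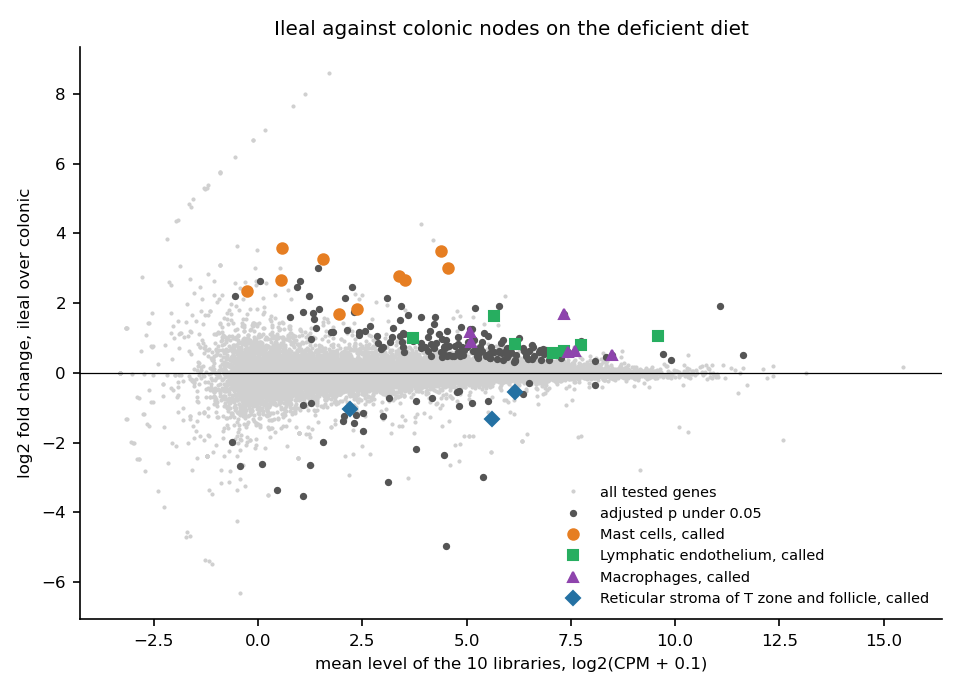
Log2 fold change of ileal over colonic nodes on the deficient diet against the mean level of the 10 libraries, as log2(CPM + 0.1), for 18387 genes. Dark points are the 215 genes with an adjusted p under 0.05, and coloured symbols are the called members of 4 cell type lists: 10 mast cell, 7 lymphatic endothelial and 6 macrophage genes lie above 0, and 3 genes of reticular stroma lie below.

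Among the 42 gene lists examined, mast cell genes had the largest share of called members. Over all tested genes 1.17% were called, the base for the share of each list. Mast cells are tissue sentinels of allergic and antiparasitic responses, filled with granules of proteases and histamine, and mouse mast cells of connective tissue and of mucosa carry different sets of proteases. Of 18 tested mast cell genes 10 were higher in ileal nodes and 0 lower (55.6% called), and their median log2 fold change was 2.25, beside -0.01 over all genes. Without the low-share libraries 2 of them passed with a median of 1.75, with a term for the classes 9 passed, and 9 to 11 passed when any 1 of the 10 libraries was left out. Within the low-share and within the other libraries the median was 1.69 over 14 tested genes and 1.81 over 15, and 0 passed in either fit. The summed level of the 18 genes was 266, 174, 116, 189 and 225 CPM in ileal libraries 1 to 5 and 70.6, 41, 47.8, 126 and 45.3 CPM in colonic libraries 1 to 5. Colonic replicate 4 lay above ileal replicate 3, and otherwise the groups did not overlap.

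Granule proteases carried the largest differences. Mcpt4, a chymase of connective tissue mast cells, measured 56, 34.6, 22, 43.1 and 50.4 CPM in ileal libraries 1 to 5 and 3.38, 0.565, 1.49, 17.4 and 3.1 CPM in colonic libraries 1 to 5. The groups did not overlap, and colonic replicate 4 was the one colonic library near the ileal range. The log2 fold change of Mcpt4 was 3.01 ± 0.44 (SE, adjusted p = 2.6e-05), and 2.26 without the low-share libraries (adjusted p = 0.0485). Cma1, another chymase of these cells, measured 27.2, 13.8, 8.89, 18.5 and 21.8 CPM in ileal and 1.56, 0.339, 0.747, 9.03 and 1.62 CPM in colonic libraries. Here colonic replicate 4 lay just above ileal replicate 3 (2.78 ± 0.46, adjusted p = 0.00023). The carboxypeptidase Cpa3 measured 28.9, 14.2, 9.01, 20.7 and 25.1 CPM in ileal and 1.04, 0.565, 3.1, 9.54 and 1.33 CPM in colonic libraries, with the same overlap (2.65 ± 0.41, adjusted p = 7.0e-05). Both trypsin-like enzymes, Tpsb2 and Tpsab1, have similar sequences, so the split of reads between them is uncertain. Tpsb2 measured 61.1, 39.5, 19.1, 33.8 and 38.6 CPM in ileal and 2.6, 0, 0, 13.7 and 1.18 CPM in colonic libraries, with no overlap (3.49 ± 0.58, adjusted p = 0.00022). Tpsab1 ranged over 1.08 to 4.93 CPM in ileal and 0 to 0.645 CPM in colonic libraries (3.59 ± 0.58, adjusted p = 0.00018). The mucosal mast cell protease Mcpt1 was nearly absent, at 0.114 to 0.656 CPM in ileal libraries and with no count in any colonic library, and did not pass (adjusted p = 0.20).

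Receptors and mediator enzymes of mast cells were higher as well. Mrgprb1 and Mrgprb2 are receptors of the Mas-related family, and the second is the mouse receptor through which basic peptides trigger connective tissue mast cells. Mrgprb1 ranged over 1.56 to 10.1 CPM in ileal and 0 to 1.55 CPM in colonic libraries (3.25 ± 0.58, adjusted p = 0.00066). Mrgprb2 ranged over 0.914 to 1.44 CPM in ileal and 0 to 0.902 CPM in colonic libraries (2.35 ± 0.60, adjusted p = 0.040), a call that ended without any 1 library other than colonic replicate 4 (adjusted p up to 0.13). Fcer1a, the chain of the IgE receptor that binds IgE, ranged over 1.38 to 3.55 CPM in ileal and 0 to 0.902 CPM in colonic libraries (2.66 ± 0.54, adjusted p = 0.0030). In each of these 3 genes the ileal libraries all lay above the colonic ones. Hdc, which makes histamine, measured 7.79, 5.25, 3, 7.16 and 5.36 CPM in ileal and 1.69, 1.92, 1.6, 2.45 and 1.03 CPM in colonic libraries (1.70 ± 0.34, adjusted p = 0.0027). The receptor of interleukin 33, Il1rl1, measured 12.8, 6.74, 4.08, 6.61 and 9.63 CPM in ileal and 2.47, 2.15, 1.81, 3.09 and 1.62 CPM in colonic libraries (1.835 ± 0.34, adjusted p = 0.0011). No colonic library reached an ileal one for Hdc or Il1rl1. The serotonin transporter Slc6a4, outside the list, was also higher (2.45 ± 0.56, adjusted p = 0.012), a call that ended without ileal replicate 4 (adjusted p up to 0.052). Among members that did not pass, the growth factor receptor Kit had 22.4 to 33.6 CPM in ileal and 14.5 to 45.5 CPM in colonic libraries (-0.02 ± 0.23, adjusted p = 1), and the transcription factor Gata2 had a log2 fold change of 0.87 ± 0.28 (adjusted p = 0.16).

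Promoters of 8 of the 10 called mast cell genes were found in the RefSeq table on build GRCm38.p6, as 9 windows of 250 bases before to 50 after a gene start. GATA factors, above all GATA2, are known regulators of mast cell genes, so each window was searched on both strands for the word AGATAA, the word TGATAA, the word AGATAG and the word TGATAG. All 9 windows of the 8 genes held at least 1 match, beside 29.8% of all 32851 windows in the table. A match describes the letters of the window and shows no binding, and the genes were picked for their difference. The windows were not matched for base composition, and a part of GATA factors in the difference was not tested. In the 4 windows shown, 2 of chymases, 1 of the carboxypeptidase and 1 of the IgE receptor chain, matches are in capitals, and TTATCT stands for the word AGATAA, and CTATCT for the word AGATAG, on the other strand.
Mcpt4, at chr14:56062261-56062560, minus strand: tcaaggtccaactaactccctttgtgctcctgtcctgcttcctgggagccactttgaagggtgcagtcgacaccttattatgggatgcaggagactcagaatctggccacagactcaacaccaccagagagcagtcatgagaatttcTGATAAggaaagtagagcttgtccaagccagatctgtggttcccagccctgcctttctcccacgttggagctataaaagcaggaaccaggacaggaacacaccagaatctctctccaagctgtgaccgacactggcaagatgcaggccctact
Cma1, at chr14:55944626-55944925, minus strand: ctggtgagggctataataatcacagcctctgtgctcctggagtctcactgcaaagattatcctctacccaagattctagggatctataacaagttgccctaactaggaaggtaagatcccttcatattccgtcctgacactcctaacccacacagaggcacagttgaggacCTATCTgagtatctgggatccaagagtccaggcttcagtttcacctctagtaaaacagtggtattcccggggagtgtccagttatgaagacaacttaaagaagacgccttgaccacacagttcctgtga
Cpa3, at chr3:20242132-20242431, minus strand: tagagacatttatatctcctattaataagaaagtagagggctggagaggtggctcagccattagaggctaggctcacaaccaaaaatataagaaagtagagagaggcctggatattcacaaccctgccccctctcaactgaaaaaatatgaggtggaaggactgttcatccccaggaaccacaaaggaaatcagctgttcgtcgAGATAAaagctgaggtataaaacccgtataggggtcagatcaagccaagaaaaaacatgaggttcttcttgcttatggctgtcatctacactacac
Fcer1a, at chr1:173227180-173227479, minus strand: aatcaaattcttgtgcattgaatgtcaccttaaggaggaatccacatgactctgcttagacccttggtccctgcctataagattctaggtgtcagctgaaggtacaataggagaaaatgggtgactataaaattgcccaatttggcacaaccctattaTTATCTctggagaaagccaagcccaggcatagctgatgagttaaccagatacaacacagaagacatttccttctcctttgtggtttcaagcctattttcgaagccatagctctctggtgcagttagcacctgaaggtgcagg
Counted from the gene start, the match lay at base -103 in Mcpt4, -79 in Cma1, -46 in Cpa3 and -92 in Fcer1a.

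Mcpt4 and Tpsb2 were also followed over the other nodes and the other diet. Mcpt4 averaged 92.5 ± 38.1 CPM in duodenal, 78.3 ± 18 in jejunal, 41.2 ± 13.4 in ileal, 5.19 ± 6.93 in colonic and 31.2 ± 10.5 in inguinal nodes of the deficient diet (SD, n = 5 each). On the sufficient diet it averaged 0.506 ± 0.306, 0.874 ± 0.36, 1.7 ± 1.22, 0.906 ± 0.631 and 6.08 ± 1.91 CPM in the same order of nodes. Colonic nodes were the lowest of the 5 on the deficient diet, and duodenal and jejunal nodes did not differ beyond their spread. Tpsb2 was likewise lowest in colonic nodes, at 88.5 ± 42.9 in duodenal, 95.2 ± 24.2 in jejunal, 38.4 ± 15.1 in ileal, 3.49 ± 5.79 in colonic and 12.8 ± 3.1 CPM in inguinal nodes. Between ileal and colonic nodes of the sufficient diet 2 of the 18 list members passed, both higher, where 5.03% of all genes passed, 4.01% higher and 1.01% lower. The median log2 fold change was 0.06. The difference between the diets was tested in the same model. It had an unadjusted p of 0.029 for Mcpt4, 0.0035 for Cma1 and 0.00051 for Il1rl1, and none passed over all genes (adjusted p of 0.78, 0.48 and 0.26).

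**Figure D2:**
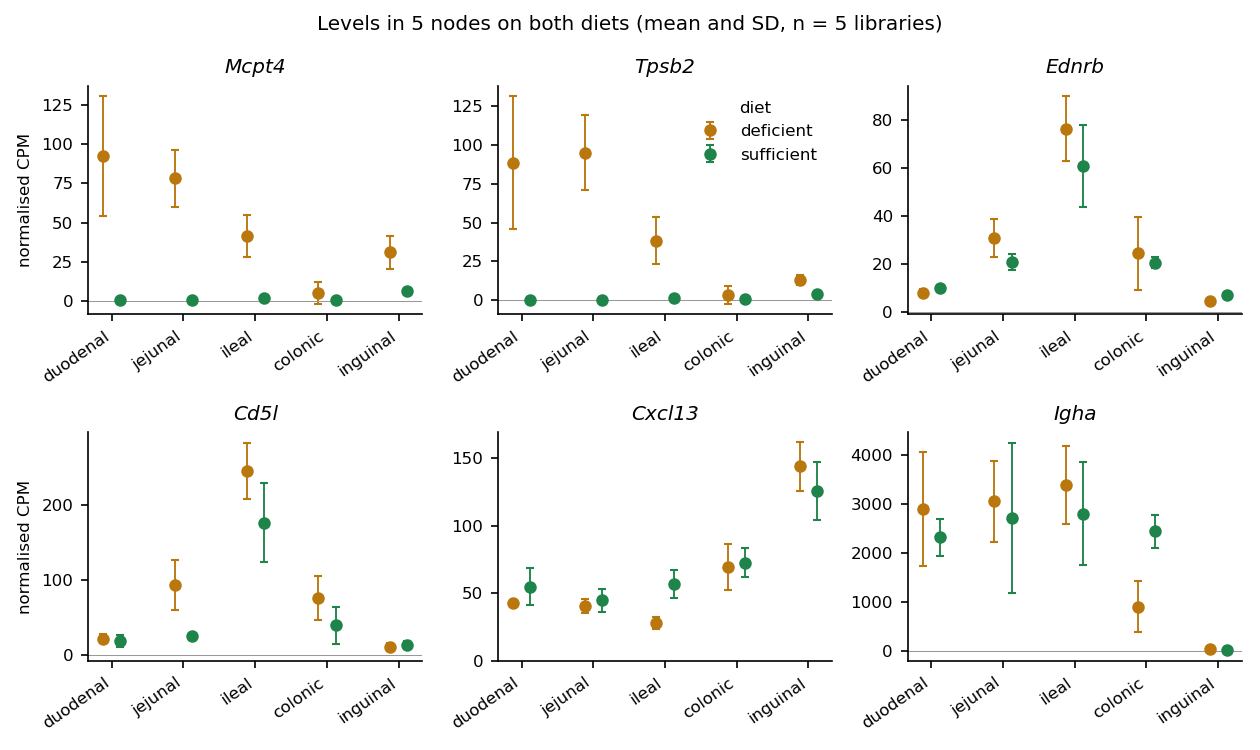
Mean normalised CPM with SD (n = 5 libraries) of 6 genes in the 5 nodes, for the deficient and the sufficient diet. Mcpt4 and Tpsb2 are near 0 in all gut nodes of the sufficient diet and lowest in colonic nodes on the deficient diet, Ednrb and Cd5l peak in ileal nodes on both diets, Cxcl13 is lowest in ileal nodes of the deficient diet, and Igha of the deficient diet is lower in colonic than in the other gut nodes.

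Sinus-lining lymphatic endothelium formed the next group. Of 20 tested lymphatic endothelial genes 7 were higher in ileal nodes and 0 lower (35% called), 19 had a positive fold change, and the median log2 fold change was 0.51. Without the low-share libraries 0 passed and the median was 0.46, with a term for the classes 7 passed, and 4 passed without colonic replicate 3 or colonic replicate 5. Within the low-share and within the other libraries the median was 0.58 and 0.46. Ednrb, an endothelin receptor, measured 72.4, 81.7, 69.9, 96.4 and 61 CPM in ileal and 19.9, 21.4, 17.5, 50.9 and 12.7 CPM in colonic libraries. All ileal libraries lay above all colonic ones (1.64 ± 0.22, adjusted p = 8.5e-06). Marco, a scavenger receptor of medullary sinus endothelium and of macrophages, measured 914, 1030, 928, 1323 and 1006 CPM in ileal and 526, 405, 492, 761 and 298 CPM in colonic libraries, again with no overlap (1.07 ± 0.18, adjusted p = 0.00035). The hyaluronan receptor Lyve1 measured 205, 290, 236, 371 and 254 CPM in ileal and 142, 152, 128, 189 and 170 CPM in colonic libraries (0.80 ± 0.14, adjusted p = 0.00072). Flt4, the receptor for lymphatic growth factor VEGF-C, ranged over 78.1 to 108 CPM in ileal and 38.7 to 57.8 CPM in colonic libraries (0.84 ± 0.15, adjusted p = 0.00079). The groups were apart in both genes. The other called members were less stable. The call of the scavenger receptor Stab2 (0.64 ± 0.15, adjusted p = 0.019) ended without ileal replicate 2, colonic replicate 3 or colonic replicate 5 (adjusted p up to 0.064). That of Stab1, of the same family (0.58 ± 0.14, adjusted p = 0.025), ended without ileal replicate 4, colonic replicate 2, colonic replicate 3 or colonic replicate 5 (adjusted p up to 0.18). That of Clec4g, a lectin of sinus endothelium (0.99 ± 0.25, adjusted p = 0.030), ended without any 1 library other than ileal replicate 3, ileal replicate 5 and colonic replicate 4 (adjusted p up to 0.12). Prox1, the factor that sets lymphatic identity, had 21 to 37.1 CPM in ileal and 14.2 to 24.6 CPM in colonic libraries (0.53 ± 0.16, adjusted p = 0.095). Ccl21a had a fold change of -0.33 ± 0.13 (adjusted p = 0.34).

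Ednrb stood out by node. On the deficient diet it averaged 8.04 ± 1.55 CPM in duodenal, 30.8 ± 7.79 in jejunal, 76.3 ± 13.4 in ileal, 24.5 ± 15.1 in colonic and 4.5 ± 0.94 in inguinal nodes. Jejunal and colonic nodes did not differ beyond their spread, and ileal nodes were above both. On the sufficient diet 4.01% of all genes were higher in ileal than colonic nodes. Of the 20 lymphatic genes 12 were higher there, with a median log2 fold change of 0.88. Prox1 was among them (1.39, adjusted p = 4.4e-08), and the test of the difference between diets had an unadjusted p of 0.00041 for this gene (adjusted p = 0.25). Endothelial genes outside the list that were named after their values were seen included Angpt2, a ligand of the vessel receptor TIE2, at 35, 45.1, 51.4, 102 and 56.6 CPM in ileal and 9.75, 12.9, 14.8, 30.3 and 11.8 CPM in colonic libraries. No colonic library reached the ileal range (1.86 ± 0.24, adjusted p = 4.9e-06). Kdr, the main VEGF receptor of blood vessels, was the 1 called gene of 18 blood endothelial genes (0.66 ± 0.13, adjusted p = 0.0020).

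Macrophage genes were higher in part. Of 19 tested genes 6 were higher in ileal nodes and 0 lower (31.6% called), with a median log2 fold change of 0.42. Without the low-share libraries 0 passed and the median was 0.25, with a term for the classes 6 passed, and 3 passed without ileal replicate 4 or colonic replicate 5. Within the low-share and within the other libraries the median was 0.50 and 0.26. Adgre1, which encodes F4/80, measured 52.5, 55.2, 36.3, 51.6 and 38.5 CPM in ileal and 17.7, 18.4, 18.4, 29.4 and 20.1 CPM in colonic libraries (1.17 ± 0.19, adjusted p = 0.00010). Cd5l, a secreted protein of tissue macrophages, measured 217, 298, 203, 260 and 254 CPM in ileal and 55.6, 95.7, 69, 117 and 43.4 CPM in colonic libraries (1.69 ± 0.31, adjusted p = 0.00092). Neither gene overlapped between the groups. Csf1r, the receptor for macrophage growth factor CSF1, ranged over 382 to 482 CPM in ileal and 257 to 355 CPM in colonic libraries (0.52 ± 0.11, adjusted p = 0.0073). C1qc and C1qb, subunits of complement C1q, had log2 fold changes of 0.62 ± 0.15 and 0.59 ± 0.14 (adjusted p of 0.016 and 0.024), and the remaining subunit C1qa had 0.47 ± 0.13 (adjusted p = 0.054). The call of C1qc ended without ileal replicate 4 or colonic replicate 5 (adjusted p up to 0.11), and that of C1qb ended without ileal replicate 4, colonic replicate 1 or colonic replicate 5 (adjusted p up to 0.17). The iron exporter Slc40a1 was also higher (0.88 ± 0.22, adjusted p = 0.030), a call that ended without any 1 library other than ileal replicate 1, ileal replicate 2, ileal replicate 3 and colonic replicate 4 (adjusted p up to 0.17). Timd4, a receptor for dying cells, went against the list at 84.6 to 129 CPM in ileal and 126 to 182 CPM in colonic libraries, and did not pass (-0.43 ± 0.13, adjusted p = 0.10). In sufficient nodes 10 of the 19 were higher and 1 lower in ileal nodes, beside 4.01% higher and 1.01% lower over all genes. Adgre1 had a log2 fold change of 2.30 there, and its difference between diets had an unadjusted p of 1.0e-04 and an adjusted p of 0.13. The adipose list had 0 of 17 genes called and a median log2 fold change of 0.03. The part of the fat in the replicate 4 libraries in these results was not tested.

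**Figure D3:**
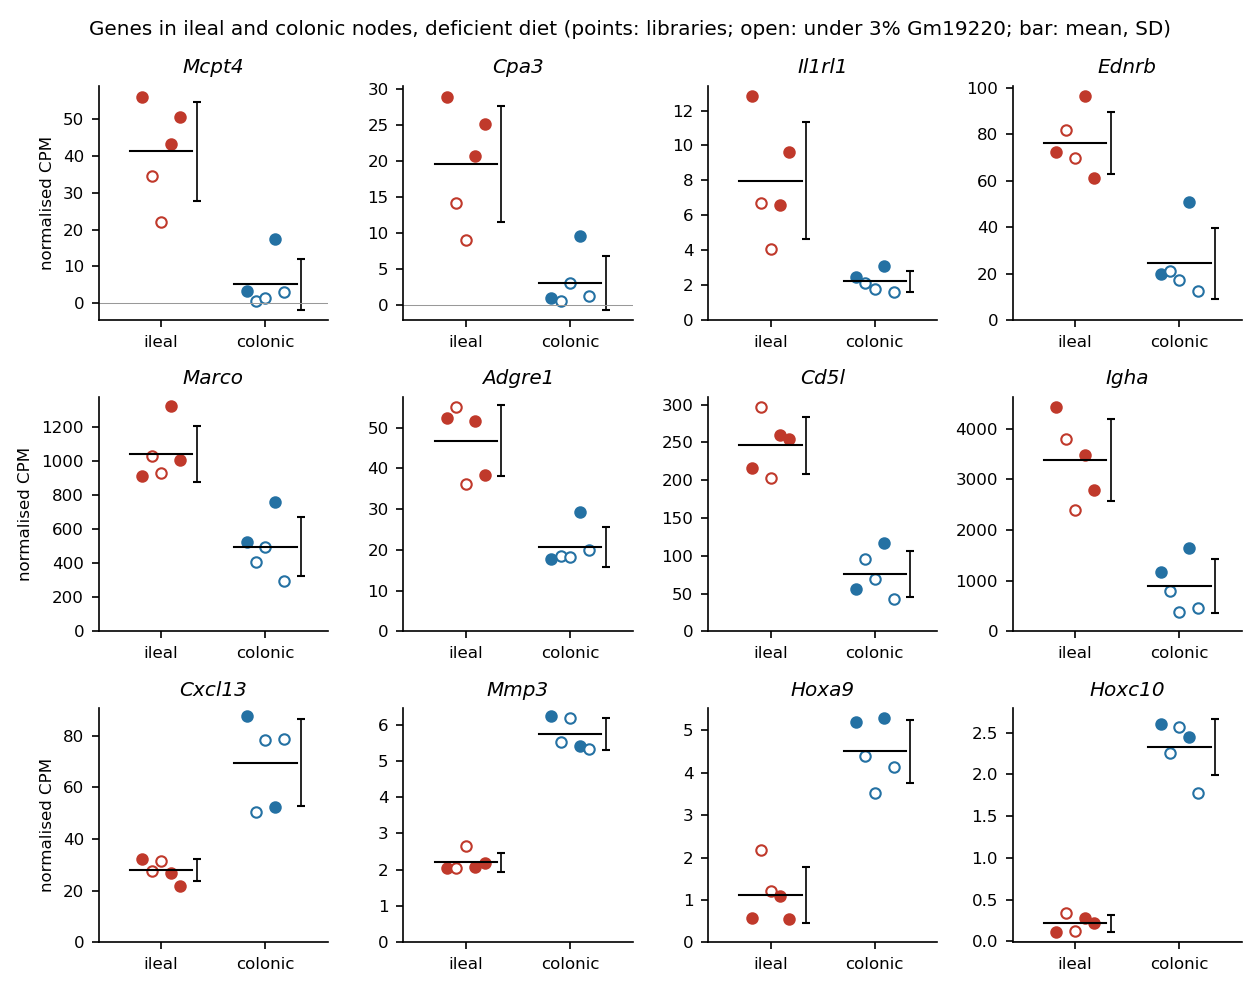
Normalised CPM of 12 genes in ileal (left) and colonic (right) libraries of the deficient diet, replicates 1 to 5 from left to right in each group, with the mean and SD. Open points are libraries with under 3% of counts in Gm19220. The first 8 genes are higher in ileal nodes, with colonic replicate 4 the highest colonic library in each, and the last 4, Cxcl13, Mmp3, Hoxa9 and Hoxc10, are lower with no overlap.

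Replicate 4 of the colonic node lay toward the ileal side across the set. It was the highest colonic library in 125 of the 180 genes called higher in ileal nodes (69.4%), and in 18.5% of all genes tested. Ileal replicate 4 was the highest ileal library in 101 of the 180 (56.1%), and in 23.9% of all genes tested. Calls that ended without ileal replicate 4 included the chemokine Ccl2, at 10.1, 9.71, 9.73, 34.9 and 10.9 CPM in ileal and 4.42, 8.58, 5.12, 9.28 and 6.49 CPM in colonic libraries (1.14 ± 0.28, adjusted p = 0.022). Its call ended without ileal replicate 4, colonic replicate 1, colonic replicate 3 or colonic replicate 5 (adjusted p up to 0.41). The call of the phosphate hormone Fgf23 (2.21 ± 0.54, adjusted p = 0.022) ended without ileal replicate 4, colonic replicate 2, colonic replicate 3 or colonic replicate 5 (adjusted p up to 0.32). That of the aggrecan protease Adamts4 (1.83 ± 0.40, adjusted p = 0.0072) ended without ileal replicate 4 (adjusted p up to 0.087). Interferon response genes followed the same library. All 18 had a positive fold change with a median of 0.37, 0 passed, and the median was -0.14 without ileal replicate 4. Their summed level was 4336 CPM in that library, 1062 to 1960 CPM in the other ileal libraries and 825 to 2940 CPM in the colonic ones.

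Matrix genes and the genes around them differed one by one. Of 23 tested genes of collagens and matrix 3 were higher and 1 lower, with a median log2 fold change of 0.25. Col6a6, a chain of type VI collagen, measured 10.5, 7.2, 4.21, 7.44 and 4.59 CPM in ileal and 1.17, 1.92, 1.71, 1.29 and 1.48 CPM in colonic libraries. The ranges were apart (2.15 ± 0.24, adjusted p = 2.1e-07), and the call held without the low-share libraries (2.60, adjusted p = 0.00046). The matrix genes Tnc (0.59 ± 0.15, adjusted p = 0.035) and Eln (0.56 ± 0.14, adjusted p = 0.036) were higher. The call of Tnc ended without any 1 library other than ileal replicate 1, ileal replicate 3, colonic replicate 1 and colonic replicate 2 (adjusted p up to 0.15), and that of Eln ended without any 1 library other than ileal replicate 1, ileal replicate 3 and colonic replicate 4 (adjusted p up to 0.16). Thbs4, a thrombospondin of the matrix, ranged over 3.43 to 6.49 CPM in ileal and 8.41 to 14.6 CPM in colonic libraries (-1.23 ± 0.23, adjusted p = 0.0011). Among 19 proteases and inhibitors 2 were higher and 1 lower. Plat, tissue plasminogen activator, measured 49.9, 77.4, 54.3, 176 and 75.3 CPM in ileal and 8.84, 16, 11.6, 71.4 and 6.35 CPM in colonic libraries, where colonic replicate 4 overlapped the ileal range (1.92 ± 0.38, adjusted p = 0.0026). Mmp3, the matrix protease stromelysin, measured 2.06, 2.06, 2.64, 2.07 and 2.19 CPM in ileal and 6.24, 5.53, 6.19, 5.42 and 5.31 CPM in colonic libraries. It was lower in ileal nodes with no overlap between the groups (-1.38 ± 0.25, adjusted p = 0.00072). Without the low-share libraries 0 of the 19 proteases and inhibitors passed (adjusted p of 0.13 for Mmp3 and 0.75 for Plat), and of the 23 matrix genes 1 passed, Col6a6 (adjusted p of 0.068 for Thbs4). Outside these lists the retrovirus-derived gene Erv3 was higher in ileal nodes (2.46 ± 0.30, adjusted p = 1.7e-06), as was the membrane protein gene Tmem63c (2.64 ± 0.56, adjusted p = 0.0054). Bpifb3, of a family of secreted lipid-binding proteins, was lower (-2.65 ± 0.50, adjusted p = 0.0014), as was the endothelial lipase Lipg (-1.68 ± 0.40, adjusted p = 0.018), whose call ended without ileal replicate 1, ileal replicate 2, ileal replicate 5 or colonic replicate 1 (adjusted p up to 0.075).

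A few genes of reticular stroma were lower in ileal nodes, Cxcl13 first among them. Of 18 tested genes of T zone and follicular reticular stroma 3 were lower in ileal nodes and 0 higher (16.7% called), 6 had a positive fold change, and the median log2 fold change was -0.21. In the fit without the low-share libraries 1 passed, Cxcl13, and the median was -0.07, while Grem1 (adjusted p = 0.61) and Ch25h (adjusted p = 0.64) did not pass. Within the low-share and within the other libraries the median was -0.18 and -0.06. Cxcl13, which draws B cells into follicles, measured 32.2, 27.5, 31.6, 26.9 and 21.8 CPM in ileal and 87.5, 50.7, 78.3, 52.4 and 78.7 CPM in colonic libraries. The ranges were well apart (-1.31 ± 0.14, adjusted p = 2.1e-07), and Cxcl13 also passed without the low-share libraries (-1.38, adjusted p = 0.0013). Grem1, a BMP inhibitor made by stromal cells of the T zone, ranged over 51.9 to 63.3 CPM in ileal and 64.7 to 99.8 CPM in colonic libraries (-0.54 ± 0.11, adjusted p = 0.0022). Ch25h, which starts the synthesis of the oxysterol that guides activated B cells, ranged over 2.17 to 4.36 CPM in ileal and 4 to 8.84 CPM in colonic libraries (-1.03 ± 0.24, adjusted p = 0.013), and its call ended without ileal replicate 2, ileal replicate 5, colonic replicate 1 or colonic replicate 3 (adjusted p up to 0.075). The other chemokines of this stroma, Ccl19 (-0.23, adjusted p = 0.73) and Cxcl12 (-0.41, adjusted p = 0.081), did not pass. On the sufficient diet Cxcl13 had a log2 fold change of -0.38 (adjusted p = 0.14), and the difference between diets had an unadjusted p of 3.5e-05 and an adjusted p of 0.10. Ileal nodes averaged 28 ± 4.21 CPM on the deficient and 56.8 ± 10.6 CPM on the sufficient diet, and colonic nodes 69.5 ± 16.8 and 72.6 ± 10.9 CPM. B cell genes lay on the same side, with 0 of 15 fold changes positive, a median of -0.24 and 1 gene called. That gene was Ms4a1, which encodes CD20 (-0.35 ± 0.09, adjusted p = 0.043), at 212 to 256 CPM in ileal and 247 to 332 CPM in colonic libraries, and its call ended without any 1 library other than ileal replicate 3 and colonic replicate 4 (adjusted p up to 0.2). The summed level of the 15 B cell genes was 3743 to 4428 CPM in ileal and 4352 to 5176 CPM in colonic libraries. Rgs5, a marker of pericytes, ranged over 13.7 to 23.6 CPM in ileal and 30.2 to 42.5 CPM in colonic libraries (-0.95 ± 0.14, adjusted p = 2.6e-05) and passed without the low-share libraries (-1.09, adjusted p = 0.012). The decoy receptors Il13ra2 (-1.20 ± 0.24, adjusted p = 0.0022) and Il22ra2 (-0.87 ± 0.23, adjusted p = 0.041) bind interleukins 13 and 22. Both were lower in ileal nodes. Neither passed without the low-share libraries (adjusted p of 0.31 for Il13ra2 and 0.36 for Il22ra2), and the call of Il22ra2 ended without any 1 library other than ileal replicate 4 and colonic replicate 2 (adjusted p up to 0.24).

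Hoxc10 and Hoxa9, Hox genes of posterior groups, were lower in ileal nodes. Of 7 tested genes of paralogue groups 9 to 13, 2 were lower and 0 higher, 3 had a positive fold change, and the median log2 fold change was -0.87. The summed level of the 7 was 25.2 to 28.1 CPM in ileal and 25.5 to 33.4 CPM in colonic libraries, which overlapped. With the low-share libraries left out 1 passed, Hoxc10, with a median of -1.74, and Hoxa9 did not (adjusted p = 0.14). The median was -0.07 within the low-share libraries, and -0.94 over 6 tested genes within the others. Of 18 genes of groups 1 to 8 none passed, with a median of 0.12. Hoxc10 (GRCm38, chr15:102966796-102971893, plus strand) measured 0.115, 0.343, 0.12, 0.276 and 0.219 CPM in ileal and 2.6, 2.26, 2.56, 2.45 and 1.77 CPM in colonic libraries. Every ileal library lay far below the colonic range (-3.35 ± 0.45, adjusted p = 1.4e-05), also without the low-share libraries (-3.55, adjusted p = 0.028). Hoxa9 (chr6:52223100-52231089, minus strand) measured 0.573, 2.17, 1.2, 1.1 and 0.547 CPM in ileal and 5.2, 4.4, 3.52, 5.29 and 4.13 CPM in colonic libraries (-1.996 ± 0.49, adjusted p = 0.023). Its ranges were apart, but the call ended without ileal replicate 1, ileal replicate 4, ileal replicate 5 or colonic replicate 1 (adjusted p up to 0.084). Hoxa10 ranged over 0.219 to 0.458 CPM in ileal and 1.04 to 1.62 CPM in colonic libraries and did not pass (-1.91 ± 0.58, adjusted p = 0.11). Hoxd9 had 16.2 to 20.1 CPM in ileal and 12.2 to 16.2 CPM in colonic libraries (0.38 ± 0.17, adjusted p = 0.49). On the sufficient diet 4 of the 7 posterior genes were lower in ileal nodes, Hoxc10 (-3.84), Hoxa9 (-2.24) and Hoxa10 (-2.86) among them. Over all genes 1.01% were lower there.

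IgA was the immunoglobulin class whose gene passed the test. Igha measured 4423, 3806, 2400, 3483 and 2793 CPM in ileal and 1179, 804, 388, 1653 and 459 CPM in colonic libraries. The groups did not overlap (1.92 ± 0.43, adjusted p = 0.010), and the call ended without colonic replicate 3 or colonic replicate 5 (adjusted p up to 0.055). It did not pass when the low-share libraries were left out (1.33, adjusted p = 0.89). It was the 1 called gene of 8 tested heavy chain constant genes, whose median log2 fold change was -0.50. Ighg1, the IgG1 gene, had 63.1 to 252 CPM in ileal and 117 to 1872 CPM in colonic libraries (-2.77 ± 1.01, adjusted p = 0.27). Ighm, the IgM gene, had 2086 to 4284 CPM in ileal and 2760 to 4762 CPM in colonic libraries (-0.35 ± 0.17, adjusted p = 0.55). Of 19 plasma cell genes none passed. Igha on the sufficient diet averaged 2799 ± 1060 CPM in ileal and 2439 ± 338 CPM in colonic nodes, and the difference between diets had an unadjusted p of 0.0049 and an adjusted p of 0.53. Single antibody variable genes made up 6 of the 35 genes that were lower in ileal nodes, of 184 variable genes tested (3.26% called). Over all genes 1.17% were called, and 0.190% were lower. Igkv4-90 had 0.109 to 5.1 CPM in ileal libraries, and 0.64 to 1.47 CPM in 4 colonic libraries beside 214 CPM in colonic replicate 4. Its log2 fold change was -4.95 ± 1.17 (adjusted p = 0.018), and 0.59 without that library. The call ended without ileal replicate 2, ileal replicate 5 or colonic replicate 4 (adjusted p up to 0.97). Ighv5-12 had 0.802 to 2.28 CPM in ileal libraries and 1.56, 1.24, 3.63, 28.2 and 42.8 CPM in colonic libraries (-3.14 ± 0.58, adjusted p = 0.0011). Reads of these genes can be split among near-identical family members, so single values are uncertain.

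Dhrs3 and Tgm2 were the called genes of the retinoid lists. Of 18 tested genes of retinoid metabolism 1 was higher and 0 lower (5.56% called), with a median log2 fold change of -0.02. Of 14 genes of retinoic acid receptors and response 2 were higher and 0 lower (14.3% called), with a median of 0.10. Over all genes 1.17% were called. On the sufficient diet 3 of the 18 and 4 of the 14 were higher and 0 lower, beside 4.01% higher over all genes. Dhrs3, which turns retinal back into retinol and is in both lists, measured 27.6, 36.8, 28, 45.6 and 28 CPM in ileal and 20.7, 19.2, 17.1, 26.9 and 12.7 CPM in colonic libraries. All ileal libraries were above the colonic ones (0.78 ± 0.16, adjusted p = 0.0051). Tgm2, a transglutaminase that retinoic acid induces, ranged over 219 to 371 CPM in ileal and 112 to 192 CPM in colonic libraries (0.91 ± 0.17, adjusted p = 0.0011). Neither passed without the low-share libraries (adjusted p of 0.90 for Dhrs3 and 0.40 for Tgm2). Aldh1a2, which makes retinoic acid from retinal, had 1.08 to 5.51 CPM in ileal and 1.07 to 4.18 CPM in colonic libraries (0.33 ± 0.36, adjusted p = 0.94). Lrat (0.71 ± 0.35, adjusted p = 0.55), the retinoic acid hydroxylase Cyp26b1 (-1.20 ± 0.49, adjusted p = 0.38) and the receptor Rarb (0.97 ± 0.62, adjusted p = 0.75) did not pass. Aldh1a2 on the sufficient diet was higher in ileal nodes (1.11, adjusted p = 0.0063), and its difference between diets had an unadjusted p of 0.091.

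No gene of lymphocyte homing passed, of 14 tested, and their median log2 fold change was -0.05. Ccr9, the homing receptor for the small intestine, had 21.7 to 26.3 CPM in ileal and 19.9 to 28.2 CPM in colonic libraries, and Gpr15, a homing receptor for the large intestine, had 4.45 to 7.3 CPM in ileal and 5.87 to 7.97 CPM in colonic libraries. Madcam1, the mucosal addressin, had 30.6 to 53.2 CPM in ileal and 29.8 to 50.4 CPM in colonic libraries. The ranges overlapped in all 3 genes, and their adjusted p were 1, 0.86 and 1.00. Of 16 T cell genes 0 passed (median 0.01), and of 16 regulatory T cell genes 1 did. That gene was Lrrc32, which tethers latent TGF-beta and is also made by endothelium, at 53.1, 57, 45.6, 94.6 and 42.8 CPM in ileal and 19.9, 27.2, 21.9, 41.3 and 22 CPM in colonic libraries (1.15 ± 0.19, adjusted p = 0.00020). It did not pass without the low-share libraries (adjusted p = 0.19). Foxp3, the defining factor of regulatory T cells, had 24.4 to 44.7 CPM in ileal and 20.2 to 32.6 CPM in colonic libraries (0.23 ± 0.18, adjusted p = 0.85). All 11 guanylate-binding proteins, which interferon gamma induces, had a positive fold change, with a median of 0.24, and 0.05 without ileal replicate 4. Gbp2b was the 1 called, at 14.3 to 28.1 CPM in ileal and 2.99 to 11.1 CPM in colonic libraries (1.61 ± 0.28, adjusted p = 0.00043). Cell cycle genes had 0 calls among 20, with 1 positive fold change and a median of -0.23. Among markers of neighbouring tissues, 0 genes passed of 20 of exocrine pancreas, 12 of intestinal epithelium and liver, 11 of mesothelium and 10 of nerve and glia. Single libraries differed in pancreas genes. Their summed level was 126 CPM in ileal replicate 4, and 18.1 to 37.6 CPM in the other ileal libraries. It was 77.8 CPM in colonic replicate 1, and 16.1 to 30.3 CPM in the other colonic libraries. The pancreas median was 0.19, and -0.59 without ileal replicate 4. The part of such tissue in these results was not tested. The plot of list members shows every list with a called gene.

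**Figure D4:**
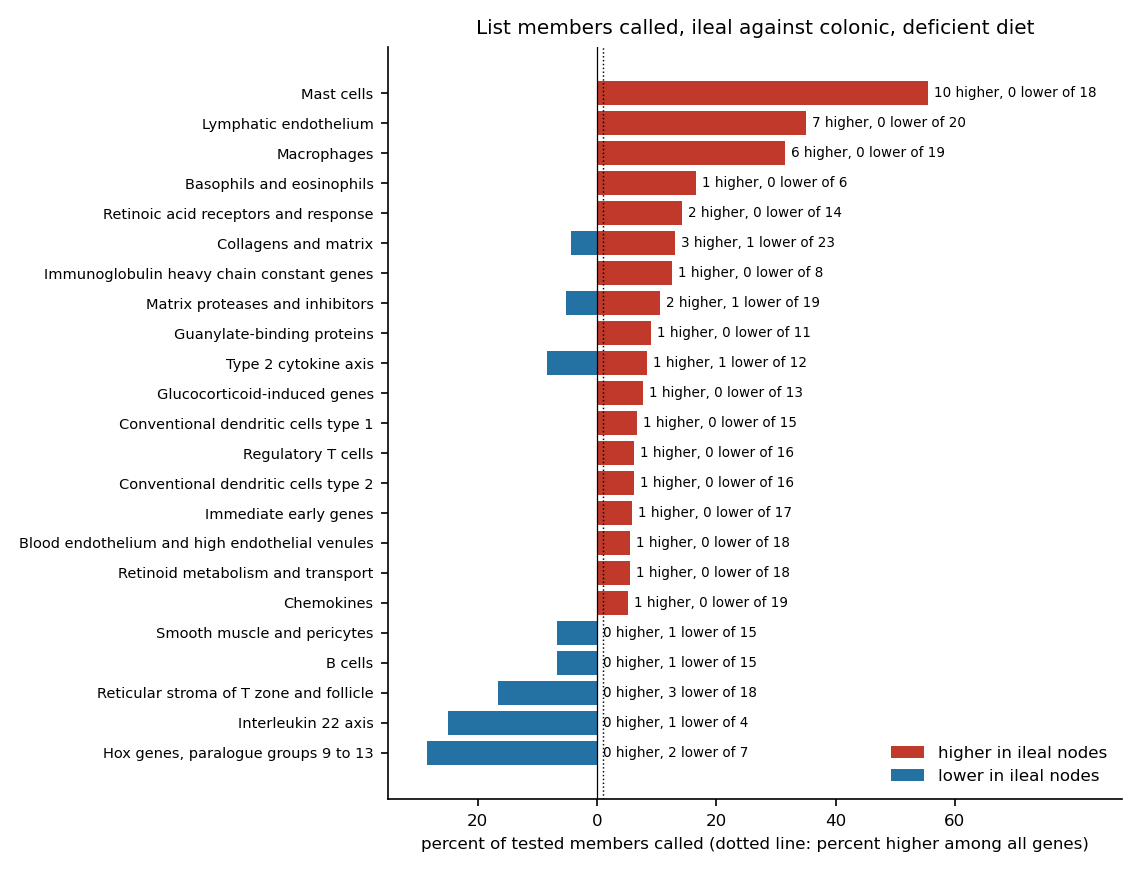
Percent of the tested members of each gene list that were called higher (red, to the right) or lower (blue, to the left) in ileal nodes of the deficient diet, for the lists with at least 1 call, with the counts beside the bars. The dotted line is the 0.979% called higher among all genes. Mast cell, lymphatic endothelial and macrophage genes have the longest bars to the right.

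Most of these differences had the same direction on the sufficient diet. There, 924 genes passed between ileal and colonic nodes, 738 higher and 186 lower. Of the 215 genes called on the deficient diet 202 had the same sign on the sufficient diet, and 149 passed on both, all in the same direction, which is 69.3% of the deficient and 16.1% of the sufficient calls. The sufficient groups hold both sexes. With female libraries alone 89 genes passed there, a fit that also has 2 in place of 5 libraries per sufficient node, so sex and the number of libraries cannot be told apart. The interaction term, which tests the difference between the diets itself, called 0 genes with edgeR's quasi-likelihood test, with 1068 genes at an unadjusted p under 0.05, 18 calls by DESeq2 and 0 by limma-voom. Of the 215 genes, 73 had an interaction p under 0.05 before adjustment. These genes were chosen by their deficient difference, which is part of the interaction. The choice itself favours small interaction p-values, so the 73 are a description. In the plot of both diets Igha had 0.16 and Il1rl1 -0.02 on the sufficient axis, while Ednrb, with 1.56, lay near the line of equal change. Diet, litter and dam cannot be told apart in these groups. The 10 low-share libraries of the 50 were all of the deficient diet. Comparisons between diets are therefore also, in part, comparisons between library classes.

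**Figure D5:**
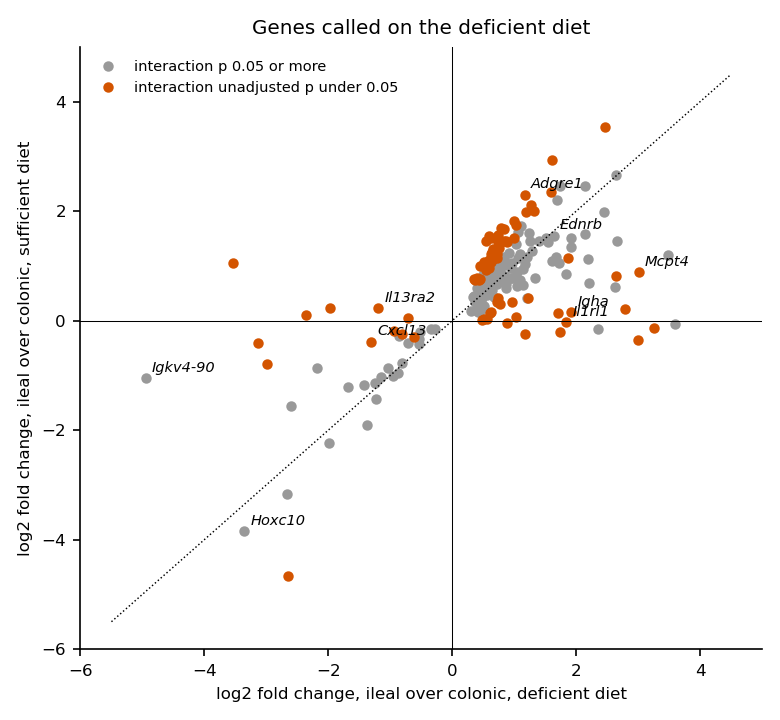
Log2 fold change of ileal over colonic nodes on the sufficient diet (vertical) against that on the deficient diet (horizontal) for the 215 genes called on the deficient diet, with the line of equal change dotted. Orange points are the 73 genes with an unadjusted interaction p under 0.05, none of which passed after adjustment. Choosing genes by the deficient difference favours such values. In 202 genes both fold changes have the same sign.

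Set beside the nodes of the upper small intestine, the genes called between ileal and colonic nodes followed more than 1 order. Of the 180 genes that were higher in ileal nodes, 132 had their highest mean of the 4 gut nodes in the ileal, 39 in the jejunal and 9 in the duodenal node of the deficient diet. In 65 of them the duodenal mean lay below the colonic one, as for Ednrb and Cd5l, and in 115 above it, as for Mcpt4. Cd5l averaged 21.3 ± 5.98 CPM in duodenal, 93.7 ± 33.9 in jejunal, 246 ± 37.5 in ileal, 76.2 ± 30 in colonic and 10.9 ± 4.88 in inguinal nodes. Of the 35 genes that were lower, 33 had their highest mean of the 4 gut nodes in the colonic node, and 21 their lowest in the ileal node. Choosing genes by the ileal to colonic difference favours those extremes, so the counts are a description.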

How the data were processed

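Whole nodes were lysed in TRIzol and poly(A) RNA was sequenced, per the labels' protocols. The authors deposited estimated counts per gene in 1 table, which were rounded to whole numbers here. The submitters' processing notes list kallisto, edgeR, limma, GRCm39 and mm10 without saying what each did, and versions are not given. Rows lacking a gene name (379 of 56600, 0.231 to 0.491% of counts) were kept as input to the fit, and such genes are not named here. The 50 libraries (5335369 to 8904722 estimated counts) entered 1 quasi-likelihood fit in edgeR 4.0.16 under R 4.3.3, with a mean for every combination of diet and node plus sex, filterByExpr (18387 genes kept) and TMM scaling. Benjamini-Hochberg adjustment covered all 18387 genes. Sex varied in sufficient mice only, so that term is estimated from them. Each standard error is the size of the log2 fold change divided by the root of F, an approximation. The number of libraries limits the precision.

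Columns of the deficient diet contain an unexplained "3rd" and no mention of control, which the remaining columns have. The comparison, its 42 gene lists and the naming rule were chosen with earlier results of these data known. The rule named the 12 strongest called genes each way by fold change, given at least 2 CPM in the higher group, at most 4 called members of a list by adjusted p, and set genes. Genes beyond these, such as Angpt2, Mrgprb2, Hdc, Slc40a1, Kit and Ighg1, were chosen after their values were seen. Gene positions are from GENCODE M21 on GRCm38, and promoters from RefSeq. Alternatives were RLE scaling, other filters, limma-voom (limma 3.58.1), DESeq2 1.42.0, no sex term, fewer libraries, a replicate block, the Gm19220 class and each library left out. The fit was tested on simulated counts. Plots used matplotlib 3.10.9 (Python 3.11.15).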

Additional observations from a re-analysis of the deposited data

Results flagged for a closer look

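In groups of 5 libraries, the highest or lowest library was set against the nearest of the others for 57 genes described above, 114 groups in all. In 17 groups the gap to the nearest library was over 0.71 of the group's range. Independent, normally distributed values would pass this in about 1 in 20 groups. These genes were mostly named for their values and vary together, so that rate is no measure of chance here. Of the 17 groups, 10 were colonic replicate 4 as the highest and 5 were ileal replicate 4 as the highest.

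Colonic replicate 4 stood above the other colonic libraries for the mast cell genes Mcpt4 (17.4 CPM, next 3.38), Cma1 (9.03 CPM, next 1.62), Cpa3 (9.54 CPM, next 3.1), Tpsb2 (13.7 CPM, next 2.6) and Mrgprb2 (0.902 CPM, next 0.148). The same library stood apart for Ednrb (50.9 CPM, next 21.4), Adgre1 (29.4 CPM, next 20.1), Plat (71.4 CPM, next 16), Angpt2 (30.3 CPM, next 14.8) and Igkv4-90 (214 CPM, next 1.47). Its summed adipose level was the highest of the colonic libraries, and its part in these values was not tested. Without this library the log2 fold change was 4.33 for Mcpt4 and 2.10 for Ednrb.

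Ileal replicate 4 stood above the other ileal libraries for Marco (1320.0 CPM, next 1030), Plat (176 CPM, next 77.4), Lrrc32 (94.6 CPM, next 57), Ccl2 (34.9 CPM, next 10.9) and Igkv4-90 (5.1 CPM, next 1.26). Ileal replicate 5 was apart for Lrat (3.17 CPM, next 1.2) and ileal replicate 3 for Mmp3 (2.64 CPM, next 2.19).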

How the results depend on the processing

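The deficient comparison called 215 genes, 190 with no filter on low counts, 228 with RLE scaling, 229 with the filter at 1 CPM in 5 libraries, 251 with limma-voom, 299 with DESeq2, 173 without the sex term and 153 with the 25 deficient libraries alone. It called 53 with the 10 libraries alone, 22 without the low-share libraries and 128 to 292 when 1 library was left out. Fits within the low-share and within the other libraries of the 10, added after seeing the data, called 0 each at 2 against 3 and 3 against 2. The cause was not tested, and these fits hold fewer samples. The sufficient comparison called 924 genes, 89 with females alone and 697 to 950 with 1 library left out. The interaction called 0 genes, 18 with DESeq2, 6 with the replicate block, 1 without the low-share libraries and 0 to 4 with 1 library left out. Of 65 called genes followed singly, 38 did so in every fit with 1 library left out, and without the low-share libraries 12 passed and all 65 kept their sign. Signs turned for Igkv4-90 with 1 library left out (-6.27 to 0.59, the highest without colonic replicate 4), and for 4 genes that did not pass: Kit with limma-voom (0.11), the replicate block (0.016), within the low-share libraries (0.42) and with 1 library left out (-0.18 to 0.24), Gpr15 without the low-share libraries (0.020) and within the others (0.024), Madcam1 within the low-share libraries (0.16) and with 1 library left out (-0.14 to 0.066), and Ccr9 without the low-share libraries (-0.015), with a term for the classes (-0.018), within the others (-0.0096) and with 1 library left out (-0.056 to 0.074). Same-numbered ileal and colonic libraries deviated together with correlations of 0.134, 0.0697, 0.158, 0.184 and 0.15, and each ileal library correlated best with its own number, a hint from the data only. As no label pairs them, the numbers were not taken as pairs in the main fit. Any such pairing is therefore left out of its p-values. With the replicate block the deficient comparison called 309 genes, 212 of the 215 among them, and the sufficient comparison 1098. Mcpt1, Rarb and Hoxa10 had few counts in the 10 libraries, and the part of depth in their results was not tested.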
